A study of Mus musculus with 4 samples.

Results

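Tumor endothelial cells, the cells that line the blood vessels of a tumor, made up 1346 of the 10975 cells kept from 4 MYCN-driven high-grade gliomas (HGG-MYCN) of mice, or 12.3%. They were chosen by measured genes. A cell had unique molecular identifiers (UMIs, 1 per captured RNA molecule) of at least 3 of the 6 genes Cldn5, Flt1, Pecam1, Cdh5, Ly6c1 and Itm2a, of at most 1 of the mural cell genes Rgs5, Vtn, Pdgfrb, Abcc9 and Higd1b, and of at most 1 of the myeloid genes C1qa, C1qb and C1qc. It also had under 5 UMIs of the luciferase and human MYCN sequences that mark tumor cells. Each tumor gave 1 library of droplet-based single-cell RNA sequencing, from mouse 4 and mouse 5 at postnatal day 43 (P43) and from mouse 6 and mouse 7 at postnatal day 70 (P70). All 4 mice were hGFAP-cre::TP53Fl/Fl::lsl-MYCNFl/wt. In these animals the human GFAP promoter drives Cre in radial glia and the cells that descend from them, where it removes p53 and switches on human MYCN, so vessel cells are not the cells in which the promoter is known to act. No tumor-free or Cre-negative brain is among the 4 samples. Every comparison below is between samples of the 2 ages or between cell classes of the same samples. The paper names the source as olfactory bulb/tumor tissue and describes P43 as early tumor onset. In mouse 4 to mouse 7, kept cells numbered 3319, 1455, 2732 and 3469. Of these, 335, 232, 371 and 2488 had at least 5 luciferase and MYCN UMIs. With 1 library per mouse and different mice at each age, age, tumor content and library preparation cannot be told apart. The tissue had been digested with papain and DNase, depleted of red blood cells, frozen, thawed and sorted for vital cells, and all shares refer to cells that remained after these steps.

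Endothelial cells of the brain differ from those of other organs by the blood-brain barrier. Tight junctions seal the gaps between neighboring cells, few vesicles cross the cell, and dedicated transporters carry glucose, amino acids, iron and hormones, a program that Wnt ligands from neural cells keep up through beta-catenin. Along a vessel, arterial, capillary and venous cells express different genes. Where vessels grow, tip cells lead the new sprout in response to VEGF, and in inflamed tissue venous cells display adhesion molecules that leukocytes bind.

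The 4 mice contributed 558 (mouse 4), 492 (mouse 5), 263 (mouse 6) and 33 (mouse 7) endothelial cells, so 1050 came from P43 and 296 from P70. Their summed UMIs were 1206890, 1932420, 1118126 and 67375 in the same order, with medians of 1489.5, 3642, 2419 and 1100 UMIs per cell. Mouse 7 was therefore measured far less deeply than the others, with 1 UMI in its sum worth 14.8 CPM (CPM, the UMIs of a gene divided by all UMIs of the sum and scaled to a total of 1000000). A single cell of mouse 7 held 19.2% of the endothelial UMIs of that mouse, against 1.25%, 0.902% and 2.05% in mouse 4, mouse 5 and mouse 6. Levels below are CPM of the UMIs summed over the endothelial cells of a mouse.

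The name fitted the marker genes that the rule had not used in the sums of all 4 mice, and less well in part of the mouse 4 cells, given below. A list of 25 further endothelial genes, among them Kdr, Tek, Egfl7 and Ptprb, summed to 11264 and 14900.5 CPM in the P43 mice and to 17200.2 and 15124 CPM in the P70 mice. In all kept cells other than endothelial cells the same list summed to 249, 288, 351 and 78.6 CPM, and in mural cells of the same mice to 899, 1077, 985 and 845 CPM. Since the cells were chosen on genes that go along with these, the values describe the class and were not tested. In each mouse, 87 genes were at least 10-fold higher in endothelial cells than in all other kept cells, with 10 CPM added to both sides. The most abundant of them was Bsg, the partner protein of lactate transporters, at 11492, 13843, 4846 and 5254 CPM. Besides the rule's own Cldn5, Flt1, Itm2a and Ly6c1, the most abundant ones included Ctla2a, Spock2, the glucose transporter Slc2a1 and the organic anion transporters Slco1c1 and Slco1a4, the last 3 being barrier genes.

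**Figure D1:**
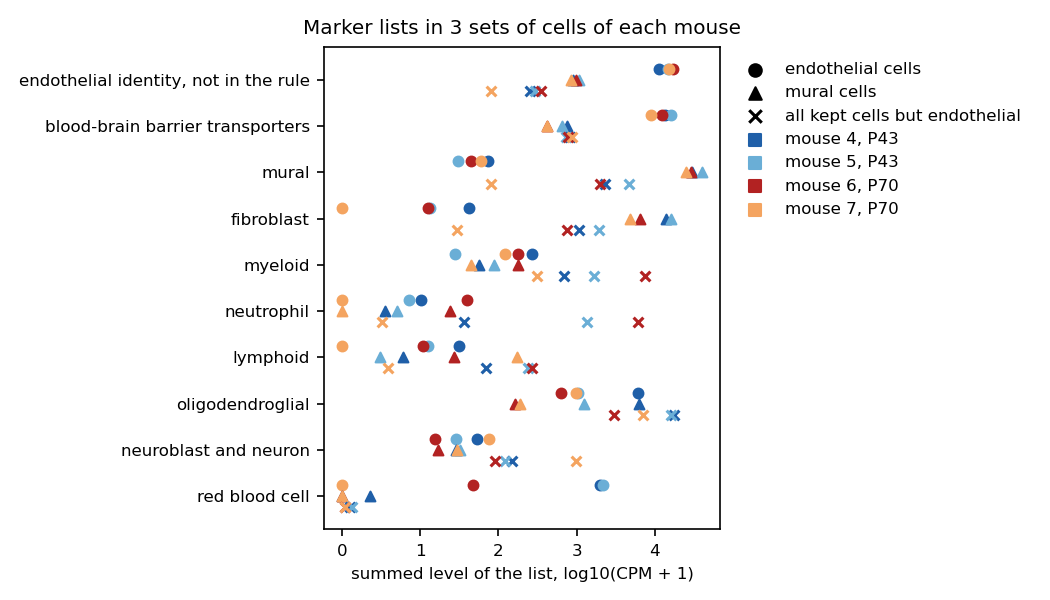
Summed level of 10 marker lists, as log10(CPM + 1) on the horizontal axis, in endothelial cells (circles), mural cells (triangles) and all kept cells other than endothelial cells (crosses) of each mouse. Endothelial identity and barrier transporter lists lie highest in endothelial cells of all 4 mice, the mural list lies far below its level in mural cells, and the oligodendroglial list of mouse 4 stands out at 6136 CPM.

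RNA of genes listed for other cell types was present in these cells, mostly in mouse 4. Oligodendroglial genes (12 on the list) summed to 6136 CPM in mouse 4 and to 1032, 636 and 994 CPM in mouse 5, mouse 6 and mouse 7. Mal was the most abundant of them in mouse 5, mouse 6 and mouse 7, at 766, 489 and 623 CPM. In mural cells of these 3 mice Mal was at 63.0, 1.43 and 0 CPM. Which cells made the Mal RNA of the endothelial sums was not tested. The mouse 4 cells with only 3 or 4 rule genes carried most of the oligodendroglial RNA of that mouse, with 14100.3 and 13398 CPM, against 3700 and 2598 CPM in those with 5 or 6. These 132 and 153 cells had less RNA of the further endothelial genes, 3773 and 6820 CPM, than of the oligodendroglial ones, which were at 17888 CPM in all other cells of that mouse. Myeloid genes of the list, the rule's own 3 included, were low, at 271, 26.4, 177 and 119 CPM, with Lyz2 at 201 CPM in mouse 4 as the most abundant gene there. The mural list including the rule's genes summed to 72.9, 29.0, 43.8 and 59.4 CPM, and Dcn and Col1a2, which define fibroblasts, were at 1.66 CPM or less in each mouse. Hemoglobin genes reached 1999 and 2188 CPM at P43 and 46.5 and 0 CPM at P70, yet 2410 of the 2413 hemoglobin UMIs of mouse 4 and 4227 of the 4228 of mouse 5 sat in 2 cells each. Luciferase or human MYCN UMIs were found in 18.1%, 9.35%, 12.2% and 12.1% of endothelial cells.

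The rule's edge was sharp in 3 mice and soft in mouse 4. The 3 cells of mouse 5 with 3 rule genes had 16973 CPM of the further endothelial genes, against 626 CPM in those with 2. In mouse 6 the values were 13049 and 994 CPM, and in mouse 7, with 1 cell just inside, 31895 and 775 CPM. In mouse 4 they were 3773 and 1168 CPM, for 132 cells just inside and 145 just outside. The limits on the other classes removed 84 cells for mural genes, 14 for myeloid genes and 19 for luciferase and MYCN UMIs. One pair of libraries shared 1 endothelial cell barcode. The genes of the Y chromosome went against the labelled sex at P43, with 229 UMIs in mouse 4, labelled female, and 1 UMI in mouse 5, labelled male, while mouse 6 (male, 225 UMIs) and mouse 7 (female, 0 UMIs) matched their labels. Both libraries in question were labelled P43, so an exchange between them would leave the comparison of ages as it is.

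Endothelial cells made up 16.8% of kept cells in mouse 4 (95% Clopper-Pearson interval 15.6% to 18.1%), 33.8% in mouse 5 (31.4% to 36.3%), 9.63% in mouse 6 (8.55% to 10.8%) and 0.951% in mouse 7 (0.656% to 1.33%), where the intervals count cells only and leave out the spread between mice. Both P43 mice lay above both P70 mice. With at least 4 of the 6 rule genes asked of a cell the shares were 12.8%, 33.6%, 8.49% and 0.922%, and with at least 5, a setting chosen after seeing the data, 8.23%, 31.1%, 6.70% and 0.692%, so the distance between mouse 4 and mouse 6 depended on the mouse 4 cells with few rule genes. The means under the rule were 25.3% and 5.29%, a difference of -20.0 percentage points, and the two-sided exact permutation test gave p = 0.333, the smallest value that 2 mice against 2 can reach. The difference between the 2 mice of each age was also far beyond counting error. When only cells with under 5 luciferase and MYCN UMIs formed the denominator, the shares were 18.7%, 40.2%, 11.1% and 3.36%, in the same order of mice. Mural cells, chosen by the mirror image of the rule, numbered 361, 262, 147 and 29.

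**Figure D2:**
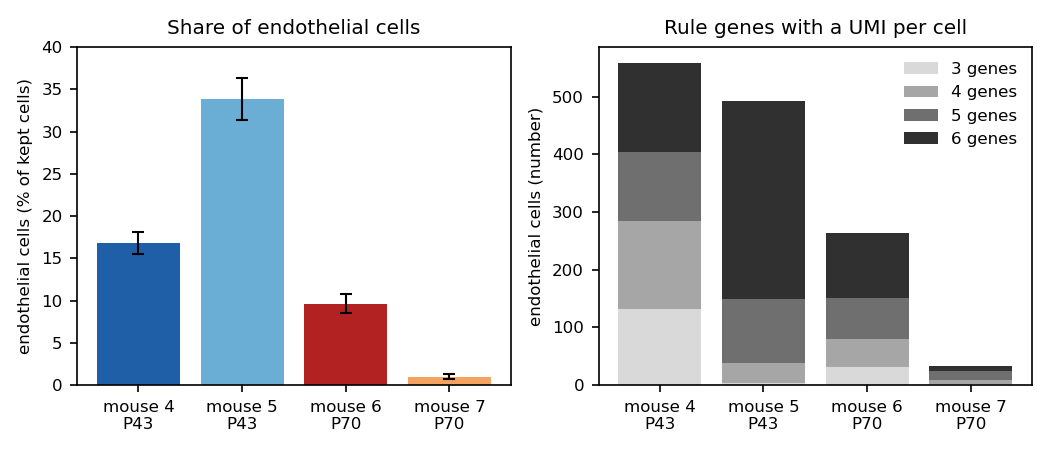
Left, endothelial cells as a percentage of kept cells in each mouse, with 95% Clopper-Pearson intervals for counting error; right, number of endothelial cells by how many of the 6 rule genes had a UMI. The P43 mice, at 16.8% and 33.8%, lie above the P70 mice, at 9.63% and 0.951%, and mouse 4 holds most of the cells with only 3 or 4 rule genes.

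The question put to these cells was which genes differed between samples of P43 and P70. Of 9022 genes tested on the sums per mouse (edgeR's quasi-likelihood test, Benjamini-Hochberg adjusted p under 0.05), 228 were higher at P70 (2.53%) and 88 were lower (0.975%). The values of the 2 ages did not overlap for 46.8% of all genes tested, so the absence of overlap alone says little about a gene. The median log2 fold change, P70 against P43, was -0.04 over all genes tested. The calls leaned on mouse 6: without it, when mouse 7 with its 33 cells stood alone for P70 and was assumed to vary as the 2 P43 mice do, 12 genes were called, 11 of them among the 316, and 278 of the 283 called genes that could still be tested kept their direction. Without mouse 4, mouse 5 or mouse 7, 397, 426 and 356 genes were called. When the cell with the most UMIs was left out of every mouse, 349 genes were called, 292 of them shared. A narrower sum held the 831 cells with no luciferase or MYCN UMI and at most 1 gene each of the oligodendroglial, neuron, lymphoid and neutrophil lists. It gave 575 called genes, 299 of them shared. It still held RNA of genes listed for other cells, with oligodendroglial genes at 1048, 720, 450.5 and 583 CPM. Myeloid genes were at 386 CPM in mouse 4 and red blood cell genes at 3691 and 3528 CPM in the P43 mice. The part of such RNA in the calls was not tested.

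**Figure D3:**
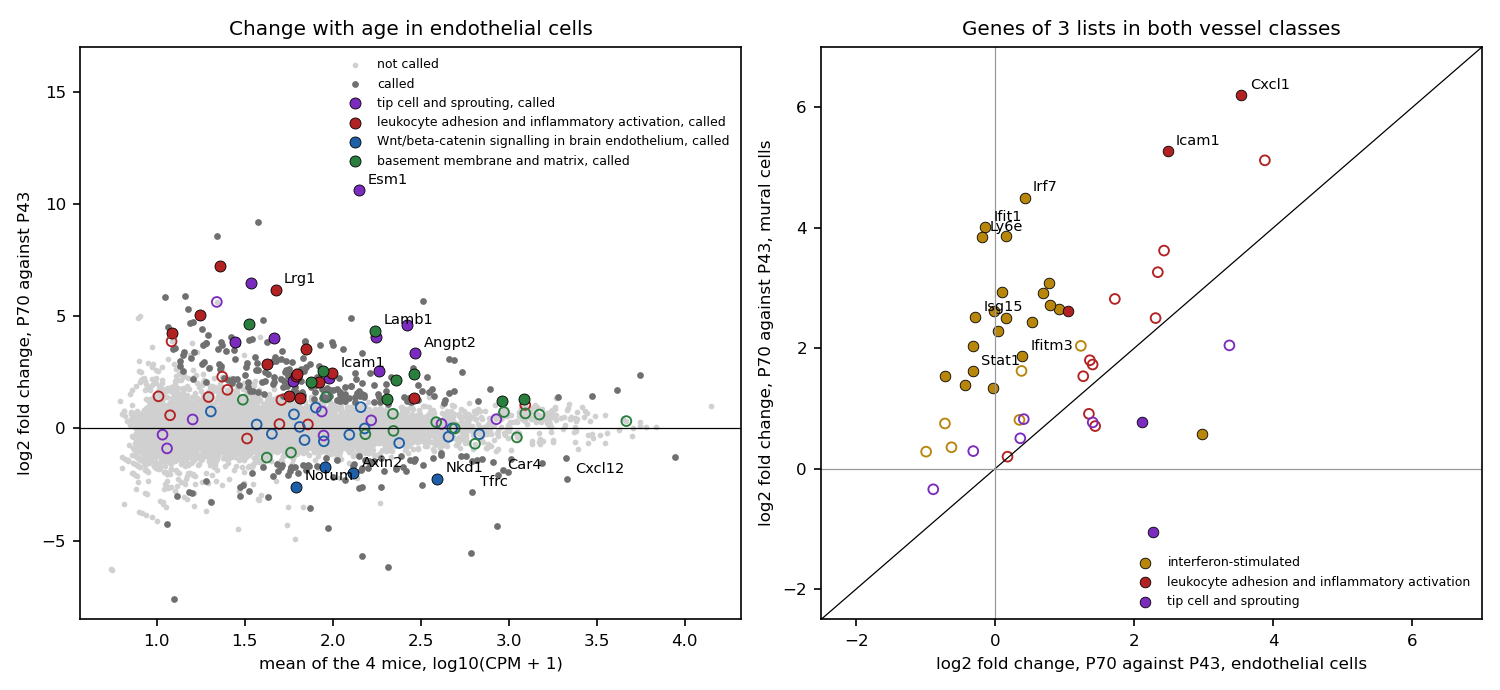
Left, log2 fold change (P70 against P43) of each tested gene in endothelial cells against its level, log10(CPM + 1), with the genes of 4 lists in color (filled where adjusted p was under 0.05, open where not); right, log2 fold change in endothelial cells against that in mural cells for the genes of 3 lists tested in both, filled where the 2 changes differed at an adjusted p under 0.05. Called sprouting, inflammatory and matrix genes lie above 0 and called Wnt genes below, while interferon-stimulated genes sit near 0 in endothelial cells and above 0 in mural cells; the fitted value of Esm1, at 0 UMIs in both P43 mice, depends on the prior count of the fit and has no fixed height.

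Part of the genes of sprouting vessels were higher at P70. Of 20 tip cell and sprouting genes tested, 10 were higher at P70 and none was lower, where 2.53% of all genes were higher, and their median log2 fold change was 2.19. Esm1, a proteoglycan gene switched on by VEGF in tip cells (chr13:113209659-113218098), was at 0 and 0 CPM at P43 and 27.7 and 534 CPM at P70. It had no UMI in 1050 cells of P43 (adjusted p = 0.00268, and 0.00829 without mouse 7). In mouse 6 its UMIs were spread over 3.80% of cells, whereas in mouse 7 all 36 UMIs came from 2 of 33 cells. Trp53i11 was at 20.7 and 15.5 CPM at P43 and 212 and 801 CPM at P70 (log2 fold change 4.61, SE 0.49, adjusted p = 9.7e-05). Igfbp3, which binds insulin-like growth factors, was at 28.2 and 19.1 CPM at P43 and 436 and 223 CPM at P70 (log2 fold change 4.07, SE 0.37, adjusted p = 2.84e-05). Kcne3, a potassium channel subunit, was at 0.829 and 0 CPM at P43 and 14.3 and 119 CPM at P70 (log2 fold change 6.48, SE 1.36, adjusted p = 0.0137). For all 4 genes both P70 mice lay above both P43 mice.

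Angpt2, the ligand with which sprouting endothelium loosens the hold of the TIE2 receptor (chr8:18690263-18741562), was the only called gene of 17 tested in the VEGF, angiopoietin and Notch list. It was at 34.8 and 58.0 CPM at P43 and 268 and 816 CPM at P70 (log2 fold change 3.37, SE 0.42, adjusted p = 0.00035). Of its 55 UMIs in mouse 7, 80.0% came from 1 cell, and without the cell with the most UMIs of each mouse the log2 fold change was 2.45 (adjusted p = 8.22e-05). The receptors on the same list did not pass the test. The VEGF receptor gene Kdr was at 739.9 and 930.4 CPM at P43 and 757 and 698 CPM at P70 (adjusted p = 0.955). The co-receptor Nrp1 was at 356 and 375 CPM at P43 and 392 and 519 CPM at P70 (adjusted p = 0.688). Apln, a peptide that tip cells secrete, was picked with its values known and was at 51.4 and 51.7 CPM at P43 and 227 and 401 CPM at P70 (log2 fold change 2.54, SE 0.31, adjusted p = 0.000341). Its receptor gene Aplnr, on the venous list, was at 36.5 and 57.4 CPM at P43 and 139.5 and 163 CPM at P70 (log2 fold change 1.72, SE 0.34, adjusted p = 0.00883). Both genes of this ligand and receptor pair were called higher at P70 by edgeR, and Apln alone by DESeq2. The other called tip cell genes were Adm, Chst1, Cxcr4 and Mcam. Without mouse 6 edgeR called 3 of 17 tested genes of the tip cell list, Esm1, Trp53i11 and, of both lists, Angpt2, with all UMIs of Esm1 in 2 cells and 80.0% of those of Angpt2 in 1 cell of mouse 7.

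Part of the venous genes were higher and part of the arterial and capillary genes lower at P70. On the venous list 7 of 13 tested genes were higher and none was lower (median log2 fold change 1.75). Of these 7, Lcn2, Lrg1 and Vcam1 are also on the leukocyte adhesion list below and Slc38a5 on the transporter list, so the counts of these lists are not separate. Without mouse 6 none of 12 venous genes was called by edgeR, with 4 at an unadjusted p under 0.05, and DESeq2 called 3 with all mice. Its summed level was also higher in the P70 mice in mural cells, at 1114 and 1190.0 CPM at P43 and 3766 and 1489 CPM at P70, against 597 and 748 CPM at P43 and 2651 and 1455 CPM at P70 in endothelial cells, with 3 of 7 genes tested there higher and 1 lower. In all other kept cells it was at 244, 442, 1618 and 113 CPM, highest in mouse 6, and their part in the endothelial values was not tested. Vwf, the clotting factor carrier stored by venous and large-vessel endothelium (chr6:125546774-125686679), was at 96.9 and 66.8 CPM at P43 and 495 and 475 CPM at P70 (log2 fold change 2.68, SE 0.29, adjusted p = 0.000101). Lrg1, a secreted glycoprotein of activated venules, was at 2.49 and 1.03 CPM at P43 and 138 and 44.5 CPM at P70 (log2 fold change 6.19, SE 0.57, adjusted p = 2.84e-05). Lcn2, an iron-scavenging lipocalin made in inflammation, was at 16.6 and 11.4 CPM at P43 and 108 and 29.7 CPM at P70 (log2 fold change 2.85, SE 0.44, adjusted p = 0.00151). In each of the 3 genes, the P70 mice were above the P43 mice, with Vwf as the most even, since its P70 values were close to each other in mice of very different depth.

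On the arterial list 3 of 14 tested genes were lower and none was higher (median -0.42), where 0.975% of all genes were lower. DESeq2 called none of the list lower and 1 higher. Cxcl12, the chemokine that arterial endothelium presents to CXCR4, was at 3163 and 3832 CPM at P43 and 311 and 1276 CPM at P70 (log2 fold change -2.28, SE 0.46, adjusted p = 0.0112). Alpl, the alkaline phosphatase of brain arterioles and capillaries, was at 59.7 and 49.2 CPM at P43 and 6.26 and 14.8 CPM at P70 (log2 fold change -2.81, SE 0.52, adjusted p = 0.00653). Other arterial genes did not pass the test, among them the Notch ligand Dll4, at 77.1 and 82.3 CPM at P43 and 157 and 59.4 CPM at P70 (adjusted p = 0.290), where the 2 P70 mice lay on either side of the P43 mice. On the capillary list 2 of 9 tested genes were lower (median -0.61). One was the carbonic anhydrase gene Car4, at 1397 and 1444 CPM at P43 and 284 and 371 CPM at P70 (log2 fold change -2.09, SE 0.29, adjusted p = 0.000628), and the other Tfrc, described with the barrier genes. Spock2, the most abundant capillary gene, was at 2472 and 3469 CPM at P43 and 2161 and 1439.7 CPM at P70 (adjusted p = 0.476).

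Cells carrying at least 2 genes of a list were counted at an equal depth of 2000 UMIs drawn from each cell, a step that left 236, 393, 146 and 9 cells of the 4 mice. Cells with venous genes made up 19.9% and 27.0% at P43 and 74.7% and 77.8% at P70. Cells with arterial genes made up 47.0% and 55.2% at P43 and 24.7% and 33.3% at P70, and cells with capillary genes 91.5% and 97.7% against 95.9% and 88.9%. At this depth the venous and arterial shares did not overlap between the ages, and the capillary shares did. Without thinning the venous shares were 19.9%, 43.5%, 70.3% and 27.3%, so the ages overlapped and the value of mouse 7 rested on its 9 deepest cells. At 1000 UMIs the venous share of mouse 7 was 27.8% of 18 cells. As a background, in cells with at least 5 luciferase and MYCN UMIs, which should lack vessel genes, the venous share was 1.59%, 2.93%, 4.06% and 0.894% and the arterial share 1.90%, 4.88%, 4.06% and 1.26%, at medians of 19443, 23850.5, 6986 and 12913 UMIs before thinning. The capillary list, some of whose genes are used by many cells, had a background of 32.1%, 23.9%, 26.7% and 21.6%. At least 2 genes of the tip cell list were found in 59.7% and 72.5% of cells at P43 and 76.0% and 88.9% at P70, with a background of 7.32% to 27.9%. Cd34, the most abundant gene of this list, had a UMI in 53.2%, 84.8%, 69.6% and 57.6% of endothelial cells without thinning. A cell with Cd34 needed only 1 further gene, so these shares are not shares of tip cells. Without thinning the tip cell shares were 47.0%, 83.7%, 73.0% and 51.5%, so the ages overlapped and the difference of the means changed its sign. A cell often carried genes of several lists: in mouse 6, 105 of the 109 cells with venous genes also had capillary genes. No test was run on these shares, since an exact permutation test of 2 mice against 2 cannot go below p = 0.333.

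**Figure D4:**
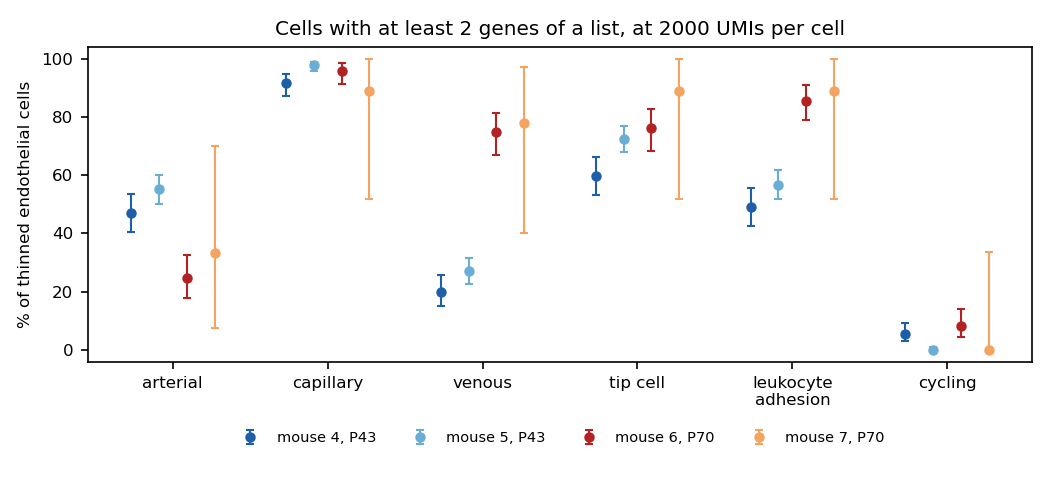
Percentage of endothelial cells, each thinned to 2000 UMIs, with a UMI of at least 2 genes of a list, in each mouse with 95% Clopper-Pearson intervals for counting error. Venous shares (19.9% and 27.0% at P43, 74.7% and 77.8% at P70) and leukocyte adhesion shares lie higher at P70, and the wide intervals of mouse 7 rest on 9 cells.

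Part of the genes of leukocyte adhesion and inflammatory activation were higher at P70. Of 24 tested, 13 were higher and none was lower (median 1.90). DESeq2 called 10 of 32, and without mouse 6 only 1 of 20, Cxcl1, was called. Vcam1, which holds leukocytes to the vessel wall (chr3:116109949-116129688), was at 41.4 and 23.3 CPM at P43 and 116 and 148 CPM at P70 (log2 fold change 2.07, SE 0.37, adjusted p = 0.00436), with all 10 UMIs of mouse 7 in 1 cell. Cxcl9, a T cell chemokine, was at 0.829 and 0 CPM at P43 and 72.4 and 14.8 CPM at P70 (log2 fold change 7.23, SE 0.84, adjusted p = 0.000225). Ptgs2, the inducible cyclooxygenase, was at 1.66 and 1.03 CPM at P43 and 49.2 and 14.8 CPM at P70 (log2 fold change 5.07, SE 0.68, adjusted p = 0.000538). Ch25h, the cholesterol 25-hydroxylase, was at 2.49 and 0.517 CPM at P43 and 26.8 and 14.8 CPM at P70 (log2 fold change 4.24, SE 0.87, adjusted p = 0.0116). Of each of these 3 genes mouse 7 had 1 UMI, so their level at P70 was that of mouse 6. Icam1, the ligand of leukocyte integrins (chr9:21015985-21028817), was picked with its values known. It had UMIs in both P70 mice, at 28.2 and 37.3 CPM at P43 and 179.8 and 148 CPM at P70 (log2 fold change 2.48, SE 0.33, adjusted p = 0.000526). Cxcl1, a chemokine for neutrophils, also named afterwards, was at 9.11 and 8.80 CPM at P43 and 68.9 and 193 CPM at P70 (log2 fold change 3.54, SE 0.48, adjusted p = 0.000538). The selectin genes Sele and Selp had too few UMIs to be tested, at 0 in both P43 mice and at 4.47 and 0 CPM (Sele) and 1.79 and 14.8 CPM (Selp) in the P70 mice. Cells with at least 2 genes of the list made up 49.2% and 56.7% of thinned cells at P43 and 85.6% and 88.9% at P70, over a background of 0.635%, 0.488%, 14.8% and 5.20%. Without thinning they made up 38.7%, 70.9%, 82.9% and 66.7%, and the ages overlapped. In all other kept cells the list summed to 323, 672, 3487 and 212 CPM, against 1360, 1519, 3713 and 3740 CPM in endothelial cells, so in mouse 6 both were at about the same level. Nfkbia made up 792, 848, 1277 and 2048 CPM of the endothelial sums. It was not called by edgeR with all mice and is also on the glucocorticoid-responsive list. The myeloid list was highest in mouse 4, and the neutrophil list was at 9.11, 6.21, 38.5 and 0 CPM, highest in mouse 6; the part of such RNA in the inflammatory values was not tested.

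The promoters of the called inflammatory genes were searched for the letters that NF-kB and STAT proteins, the factors known to act on many of these genes, recognize. The RefSeq promoter table for GRCm38.p6 held 10 of the 13 called genes, with 1 window of 250 bases before the start site each, read on both strands. A form of the NF-kB motif, GGGA, any base, TT, any base and CC in a row, was in 2 of the 10 windows and in 0.98% of all 32851 windows of the table. TTCNNNGAA, a form of the STAT motif, was in 3 of the 10 and in 7.02% of all windows. The 4 stretches below are shown because they belong to genes of adhesion, chemotaxis, macrophage growth and feedback on the list; each is written 5′ to 3′ along the gene's strand, with the matched letters in capitals. In Csf1 they are in reverse complement.
Csf1: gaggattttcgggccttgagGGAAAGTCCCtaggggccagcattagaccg
Cxcl1: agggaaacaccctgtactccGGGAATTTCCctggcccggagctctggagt
Icam1: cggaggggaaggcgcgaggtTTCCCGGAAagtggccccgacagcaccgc
Socs3: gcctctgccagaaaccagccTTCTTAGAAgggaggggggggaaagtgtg
They lie at chr3:107760594-107760643, strand - (Csf1, match 154 bases before the start), chr5:90891154-90891203, strand + (Cxcl1, 71 bases), chr9:21015878-21015926, strand + (Icam1, 42 bases) and chr11:117969492-117969540, strand - (Socs3, 154 bases). These distances are from the RefSeq start sites, and that of Icam1 lies before the gene start given above, which is from the annotation of the other coordinates. Tnfrsf1a held the third STAT match. A match of letters is a description of the sequence and not a measured site. Csf1, the growth factor of macrophages, was at 30.7 and 29.5 CPM at P43 and 71.5 and 89.1 CPM at P70 (log2 fold change 1.44, SE 0.34, adjusted p = 0.0296). Socs3, a feedback inhibitor of STAT3, was at 13.3 and 29.5 CPM at P43 and 116 and 89.1 CPM at P70 (log2 fold change 2.43, SE 0.40, adjusted p = 0.0024). Both were chosen for their promoters after their values were seen.

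**Figure D5:**
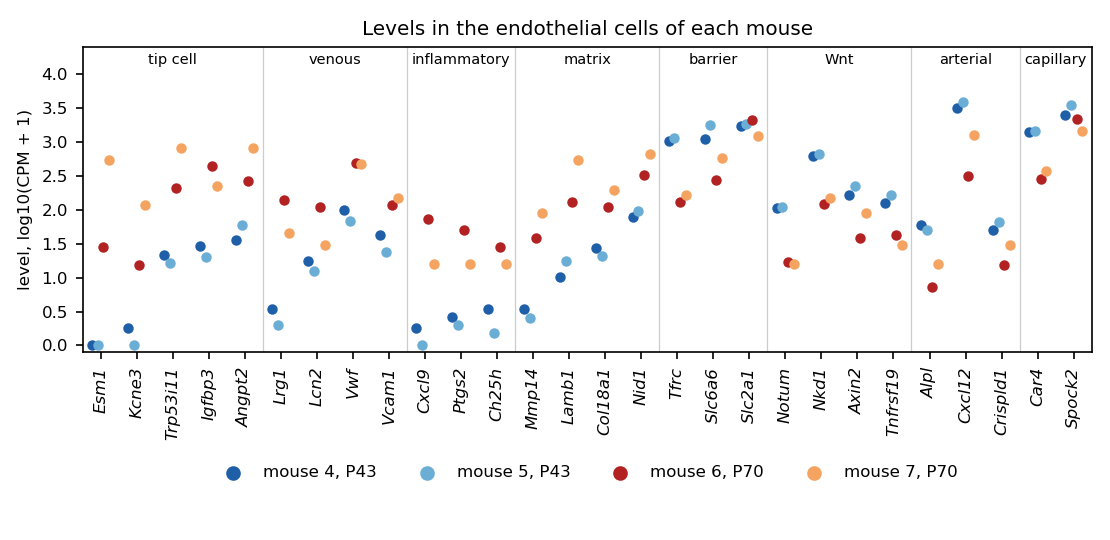
Level of 28 genes, as log10(CPM + 1), in the endothelial cells of each mouse, grouped by list; each point is 1 mouse. For called genes the 2 P43 mice lie on one side of the 2 P70 mice, whereas the barrier gene Slc2a1 and the capillary gene Spock2, not called, do not separate or separate little.

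Part of the blood-brain barrier transporter genes differed between the ages. Of 19 transporter genes tested, 3 were lower (15 not called, median -0.32) and 1, the glutamine transporter Slc38a5, was higher. At an unadjusted p under 0.05, 7 were lower and 1 was higher. The list summed to 13542 and 16066 CPM at P43 and 12229 and 9009 CPM at P70. Tfrc, the transferrin receptor that brings iron into the brain (chr16:32608920-32632794), showed the clearest fall, at 1026 and 1140.0 CPM at P43 and 131 and 163 CPM at P70 (log2 fold change -2.85, SE 0.30, adjusted p = 9.25e-05). Slc6a6, the taurine transporter, was at 1107 and 1765 CPM at P43 and 273 and 579 CPM at P70 (log2 fold change -1.84, SE 0.35, adjusted p = 0.00802). In these genes both P70 mice were below both P43 mice. Slc2a1, the glucose transporter GLUT1, was at 1699 and 1870.2 CPM at P43 and 2126 and 1232 CPM at P70 (log2 fold change 0.04, SE 0.32, adjusted p = 0.995), with the P43 mice between the 2 P70 mice. Mfsd2a, the lipid transporter that keeps vesicle traffic low, was at 492 and 594 CPM at P43 and 292 and 237 CPM at P70 (log2 fold change -0.87, SE 0.28, adjusted p = 0.118). The drug efflux pump Abcb1a was at 1049 and 1288 CPM at P43 and 562 and 594 CPM at P70 (log2 fold change -0.94, SE 0.28, adjusted p = 0.0838). Both were lower in each P70 mouse than in each P43 mouse but did not pass the threshold. None of 14 tested junction genes was called by edgeR in the main fit, with 3 lower and 0 higher at an unadjusted p under 0.05. DESeq2 called 0, while edgeR with no filter on low counts called 1 of 15, Ocln, lower. Cdh5 belongs to the rule and is not among the 14. Esam was at 711 and 860.1 CPM at P43 and 830.0 and 816 CPM at P70 and Tjp1 at 617 and 799 CPM at P43 and 579.5 and 698 CPM at P70. Plvap, the diaphragm protein of leaky vessels and not a brain capillary gene, was at 0.829 and 0 CPM at P43 and 8.94 and 74.2 CPM at P70 (log2 fold change 5.64, SE 1.50, adjusted p = 0.0547). DESeq2 called Plvap (adjusted p = 0.0165), as did edgeR with no filter on low counts, at a mitochondrial share under 10% and without mouse 4, while without mouse 5 its adjusted p was 0.137. Without mouse 6 none of the 19 transporter genes was called by edgeR, with Tfrc at an adjusted p of 0.0965.

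Part of the Wnt/beta-catenin genes were lower at P70. On the list of 19, 4 were lower at P70 and none was higher (median -0.26). In mural cells 3 of 15 tested genes of the list were lower and 1 was higher (median -0.53). In endothelial cells DESeq2 called Axin2, Nkd1 and Notum lower and did not call Tnfrsf19. Without mouse 6 none was called, with 3 lower at an unadjusted p under 0.05. Nkd1, an inhibitor of Wnt signaling that Wnt itself induces (chr8:88521354-88594884), was at 621 and 671 CPM at P43 and 119.8 and 148 CPM at P70 (log2 fold change -2.24, SE 0.29, adjusted p = 0.000422). Axin2, the scaffold of the beta-catenin destruction complex and a classical Wnt target, was at 166 and 227 CPM at P43 and 37.6 and 89.1 CPM at P70 (log2 fold change -2.00, SE 0.38, adjusted p = 0.00705). Notum, which removes the lipid that Wnt ligands need, was at 105 and 109 CPM at P43 and 16.1 and 14.8 CPM at P70 (log2 fold change -2.60, SE 0.40, adjusted p = 0.00161). Tnfrsf19, of the TNF receptor family, was at 126 and 162 CPM at P43 and 42.0 and 29.7 CPM at P70 (log2 fold change -1.71, SE 0.36, adjusted p = 0.0135). In all 4 genes both P70 mice lay below both P43 mice, although Notum rested on 1 UMI in mouse 7. The transcription factor Lef1, a member of the list and picked with its values known, was at 486 and 553 CPM at P43 and 349 and 430.4 CPM at P70 (log2 fold change -0.37, SE 0.26, adjusted p = 0.657). The Wnt receptor Fzd4, also named afterwards, was at 96.1 and 107 CPM at P43 and 178 and 193 CPM at P70 (log2 fold change 0.95, SE 0.28, adjusted p = 0.0913). The letters CTTTGAT, a form of the TCF/LEF motif through which beta-catenin acts, were in 1 of the 4 windows that the table held for 3 of the 4 called genes and in 3.21% of all windows. The matching stretch belongs to Tnfrsf19 (chr14:61038163-61038209, strand -, match 202 bases before the start) and is shown with the letters, here in their reverse complement, in capitals.
Tnfrsf19: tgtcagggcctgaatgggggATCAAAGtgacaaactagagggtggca

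Among the genes of TGF-beta and BMP signaling, which shapes vessel maturation, 2 of 18 tested were higher and 3 lower. Id1, a BMP target, was at 1445 and 1753 CPM at P43 and 402 and 356 CPM at P70 (log2 fold change -1.95, SE 0.29, adjusted p = 0.00123). The inhibitory Smad7 was at 321 and 365 CPM at P43 and 81.4 and 148 CPM at P70 (log2 fold change -1.74, SE 0.31, adjusted p = 0.00459). Smad1, a transducer of BMP signals, was at 83.7 and 93.7 CPM at P43 and 343 and 282 CPM at P70 (log2 fold change 1.96, SE 0.28, adjusted p = 0.00073). Both P70 mice lay below both P43 mice for Id1 and Smad7 and above them for Smad1. Ltbp4, a binder of latent TGF-beta, was also lower.

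Basement membrane and matrix genes were higher at P70 in 9 of 24 tested and lower in none (median 0.70); without mouse 6, 2 of 23 were called, Lamb1 and Nid1. Lamb1, a laminin chain (chr12:31265234-31329644), was at 9.11 and 16.6 CPM at P43 and 131 and 534 CPM at P70 (log2 fold change 4.36, SE 0.54, adjusted p = 0.00035). Nid1, which links laminin to collagen IV, was at 77.9 and 94.2 CPM at P43 and 328 and 653 CPM at P70 (log2 fold change 2.44, SE 0.31, adjusted p = 0.000408). Mmp14, a membrane-bound protease that cuts matrix, was at 2.49 and 1.55 CPM at P43 and 37.6 and 89.1 CPM at P70 (log2 fold change 4.65, SE 0.66, adjusted p = 0.00073). Col18a1, the source of endostatin, was at 26.5 and 20.2 CPM at P43 and 107 and 193 CPM at P70 (log2 fold change 2.58, SE 0.37, adjusted p = 0.000755). Both P70 mice lay above both P43 mice in all 4. The collagen IV chain Col4a1, named like Col4a2 after its values were known, was at 644 and 771 CPM at P43 and 1213 and 2271 CPM at P70 (log2 fold change 1.31, SE 0.31, adjusted p = 0.0258). Col4a2 was at 489.7 and 625 CPM at P43 and 911 and 1648 CPM at P70 (log2 fold change 1.20, SE 0.30, adjusted p = 0.0386). Without the cell with the most UMIs of each mouse, the log2 fold changes of these 2 were 0.90 and 0.66 (adjusted p = 0.0716 and 0.277), and neither was called without mouse 4, mouse 6 or mouse 7. In mouse 7, 1 cell held 49.7% of the Col4a1 and 62.2% of the Col4a2 UMIs. The other called genes were Itga5, Lama4 and Lamc1.

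Interferon-stimulated genes were high in endothelial cells of both ages. The 36 genes of the list summed to 6503 and 11530.1 CPM at P43 and 8518 and 7926 CPM at P70, and 1 of 35 tested, Irf8, was higher (median -0.02). Ly6e was at 1418 and 1855 CPM at P43 and 1385 and 1306 CPM at P70 (adjusted p = 0.871). Ifitm3 was at 974 and 2089 CPM at P43 and 2194 and 1514 CPM at P70 (adjusted p = 0.766). Ly6a was at 1763 and 2479.8 CPM at P43 and 1183 and 1751 CPM at P70 (adjusted p = 0.552). In the sum of the list the 2 P43 mice differed more from each other than the means of the ages did. In mural cells, the other class of the vessel wall, the same list summed to 2670 and 3382 CPM at P43 and 9322 and 5625 CPM at P70. There 22 of 28 tested genes were higher at P70, where 6.41% of all genes tested in mural cells were higher and 4.39% lower. Cells other than endothelial cells as a whole were at 1031, 1865, 11357 and 570 CPM.

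The difference between the changes of both vessel classes was tested directly, with mouse as a block and the interaction of class and age as the term. It was called for 549 of 10158 genes (5.40%), with the endothelial change higher for 2.77% and lower for 2.64% of all genes. Of the 36 interferon-stimulated genes, 26 had a lower change in endothelial cells and 2, Ifitm1 and Irf8, a higher one (median difference -2.27). Ly6e was at 11.4 and 22.4 CPM at P43 and 263 and 143 CPM at P70 in mural cells (difference -4.03, SE 0.38, adjusted p = 2.15e-21). Isg15, a ubiquitin-like interferon effector and picked with its values known, was at 261 and 680.0 CPM at P43 and 378 and 327 CPM at P70 in endothelial cells and at 49.4 and 77.2 CPM at P43 and 424 and 143 CPM at P70 in mural cells (difference -2.79, SE 0.32, adjusted p = 2.88e-14). Ifit1, which binds viral RNA, also named afterwards, was at 96.9 and 229 CPM at P43 and 139 and 134 CPM at P70 in endothelial cells and at 2.53 and 7.11 CPM at P43 and 84.4 and 42.9 CPM at P70 in mural cells (difference -4.24, SE 0.51, adjusted p = 3.97e-13). In mural cells both P70 mice were above both P43 mice for these 3 genes, and in endothelial cells the ages overlapped for Isg15 and Ifit1. Without mouse 4, mouse 5 or mouse 7, 23, 10 and 25 genes of the list were called with a lower endothelial change; without mouse 6, 2 were, Ifitm3 and Ly6e, and DESeq2 called 6. In all other cells the list was highest in mouse 6, at 11357 CPM, with mural cells at 9322 CPM. In mouse 7 the other cells were at 570 CPM and mural cells at 5625 CPM. The part of free RNA in the mural values was not tested.

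Part of the inflammatory genes, in contrast, were higher at P70 in both vessel classes, 13 of 24 tested in endothelial cells. In mural cells 13 of 17 tested genes of the leukocyte adhesion list were higher, and 3 of 28 had a change that was lower in endothelial cells, namely Cxcl1, Icam1 and Nfkbia. Cxcl1 was at 8.86 and 13.2 CPM at P43 and 736 and 816 CPM at P70 in mural cells (difference -2.81, SE 0.51, adjusted p = 6.04e-06). Icam1 was at 1.27 and 2.03 CPM at P43 and 64.4 and 71.6 CPM at P70 there (difference -2.79, SE 0.74, adjusted p = 0.00561). Nfkbia, the inhibitor of NF-kB, was at 792 and 848 CPM at P43 and 1277 and 2048 CPM at P70 in endothelial cells (adjusted p = 0.0591). For the tip cell list the order was the other way round: 2 of 9 tested genes were higher in mural cells, and 3 of 21, Adm, Trp53i11 and Mcam, had a higher change in endothelial cells. Of the 3 inflammatory genes, DESeq2 called Nfkbia alone, and so did edgeR without mouse 6. Of the 3 tip cell genes, Adm alone was called by DESeq2, without mouse 5 or without mouse 7, and none without mouse 6. Of the basement membrane genes, 9 of 25 tested in mural cells were higher at P70 and none was lower. In the test of the difference 6 had a higher endothelial change (Lama4, Lamb1, Lamc1, Mmp14, Nid1 and Sparcl1) and 4 a lower one (Col18a1, Fn1, Itga6 and Timp3). Of these, DESeq2 called Mmp14, Nid1 and Sparcl1 higher and Fn1, Itga6 and Timp3 lower. Fn1, fibronectin, was picked with its values known and was at 976 and 1035 CPM at P43 and 1696 and 1262 CPM at P70 in endothelial and at 21.5 and 17.3 CPM at P43 and 1367 and 429 CPM at P70 in mural cells (difference -5.02, SE 0.35, adjusted p = 4.16e-35). The 2 changes were measured in the same mice, so they share the libraries.

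Of 16 tested MHC class I genes, whose products show peptides to cytotoxic T cells, 3 were higher at P70 (median 0.75). H2-K1 was at 400.2 and 452 CPM at P43 and 1005 and 831 CPM at P70 (log2 fold change 1.22, SE 0.27, adjusted p = 0.0201). H2-Q7 was at 12.4 and 6.73 CPM at P43 and 122 and 134 CPM at P70 (log2 fold change 3.86, SE 0.39, adjusted p = 7.26e-05). Reads of the H2-Q genes, which are near-identical copies, may be split among them. B2m, the shared light chain, was at 624 and 988 CPM at P43 and 1519 and 1603 CPM at P70 (log2 fold change 1.03, SE 0.30, adjusted p = 0.0784). Of 6 tested MHC class II genes, 3 were called higher by edgeR, on the values of mouse 6, and 0 by DESeq2. H2-Ab1 was at 42.3 and 11.9 CPM at P43 and 207 and 0 CPM at P70 and Cd74 at 87.8 and 26.4 CPM at P43 and 399.8 and 14.8 CPM at P70, and both were lower in mouse 7 than in each P43 mouse. All other cells held 1765, 6484, 19334 and 575 CPM of the class II list, also highest in mouse 6, against 213, 58.5, 909.6 and 89.1 CPM in endothelial cells, and their part in the endothelial values was not tested.

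Immediate early and dissociation genes moved in both directions, with 4 of 25 higher and 2 lower. Nr4a1 was at 22.4 and 32.1 CPM at P43 and 263 and 267 CPM at P70 (log2 fold change 3.35, SE 0.32, adjusted p = 4.04e-05). Atf3 was at 65.5 and 113 CPM at P43 and 385 and 1276 CPM at P70 (log2 fold change 3.09, SE 0.44, adjusted p = 0.00073). Fos was at 243 and 486 CPM at P43 and 1037 and 1380.3 CPM at P70 (log2 fold change 1.77, SE 0.33, adjusted p = 0.00614). All 3 are stress-induced transcription factors. The chaperone gene Hsp90aa1 was at 1109 and 859 CPM at P43 and 365 and 312 CPM at P70 (log2 fold change -1.40, SE 0.29, adjusted p = 0.0123). These genes are also known to respond to tissue digestion, and with 1 library per mouse that part cannot be told apart from age. Of 14 glucocorticoid-responsive genes 2 were higher and 1 was lower. Angptl4, an inhibitor of lipoprotein lipase, was at 15.7 and 14.0 CPM at P43 and 119.8 and 119 CPM at P70 (log2 fold change 3.12, SE 0.35, adjusted p = 0.000154). The cell cycle inhibitor Cdkn1c was at 169.9 and 242 CPM at P43 and 42.0 and 14.8 CPM at P70 (log2 fold change -2.29, SE 0.38, adjusted p = 0.00241). Among 21 genes of glycolysis and hypoxia 3 were higher and none was lower, namely Pfkfb3, Pfkp and the vasodilator peptide gene Adm, the last at 23.2 and 40.9 CPM at P43 and 134 and 178 CPM at P70 (log2 fold change 2.26, SE 0.36, adjusted p = 0.00195). Gapdh, at 441 and 269 CPM at P43 and 535 and 623 CPM at P70, was not called (adjusted p = 0.227). On the caveolae, fenestrae and scavenging list 2 of 10 were higher and 1 lower, the caveolar coat gene Cav1, at 199.7 and 261 CPM at P43 and 84.1 and 59.4 CPM at P70 (log2 fold change -1.41, SE 0.31, adjusted p = 0.0192). The vasoactive and coagulation list had 5 of 17 higher and none lower, with Ace, the angiotensin-converting enzyme, at 5.80 and 4.66 CPM at P43 and 37.6 and 59.4 CPM at P70 (log2 fold change 3.10, SE 0.54, adjusted p = 0.00365). With no filter on low counts edgeR called Cd59a and Thbd of the vasoactive list and Ndrg1 of the glycolysis list lower. The same setting called Fbln5 and Gja4 of the arterial list higher. Where no gene of a list was called in a direction in the main fit, some still had an unadjusted p under 0.05. In edgeR the tip cell, venous, leukocyte adhesion and MHC lists had 0 lower at that level, the matrix list 3, the vasoactive list 4 and the glycolysis list 1, and the Wnt, arterial and capillary lists had 2, 3 and 1 higher. DESeq2 called none lower on the tip cell, venous, leukocyte adhesion, MHC, matrix, vasoactive and glycolysis lists and called 10, 3, 10, 8 and 3 genes higher on the tip cell, venous, leukocyte adhesion, matrix and vasoactive lists.

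Of 17 tested cell cycle genes 2 were higher, Mki67 and Cenpf, and none was lower. DESeq2 called none of 20, with 2 higher at an unadjusted p under 0.05, edgeR with upper quartile factors called Mki67 alone, and without mouse 6 edgeR called none of 19, with 1 higher at that level. At least 2 of the 20 genes of the list were found in 43.5%, 59.1%, 51.7% and 51.5% of cells, without thinning. Mki67 was at 17.4 and 2.59 CPM at P43 and 59.9 and 44.5 CPM at P70 (log2 fold change 2.75, SE 0.63, adjusted p = 0.0244). In thinned cells, at least 2 of a shorter list of 8 cell cycle genes were found in 5.51%, 0%, 8.22% and 0% of cells, where a count of 0 allows, as 3 cells of the total, up to 0.763% of cells with such UMIs at this depth in mouse 5 (0 of 393) and up to 33.3% in mouse 7 (0 of 9); the upper Clopper-Pearson limits are 0.934% and 33.6%. Without thinning the shares of the shorter list were 6.45%, 0.813%, 9.13% and 3.03%. In cells with at least 5 luciferase and MYCN UMIs the share was 41.3%, 39.0%, 38.3% and 43.5%, and RNA set free by those cells can reach endothelial droplets, a part that was not tested. Of 17 tested p53 targets 1, Plk2, was higher and none was lower, and Cdkn1a was at 263 and 294 CPM at P43 and 370.3 and 505 CPM at P70 (adjusted p = 0.249). Of 27 endothelial transcription factors 1, Meox1, was higher, and 1, Sox18, was lower, at 312 and 546 CPM at P43 and 144 and 148 CPM at P70 (log2 fold change -1.45, SE 0.32, adjusted p = 0.0192). Klf2, a factor induced by blood flow, was at 1635 and 1782 CPM at P43 and 867 and 1158 CPM at P70. Klf4 was at 800.4 and 1029.8 CPM at P43 and 345 and 861 CPM at P70. Neither passed the test.

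Among the called genes with a mean of at least 50 CPM in the higher age and no overlap of the ages (176 higher, 77 lower), the largest rises included, besides genes named above, Fam167b, Scgb3a1, Bgn, Pdlim1, Eva1a, Prr5 and Gng2. Fam167b was at 0 and 0 CPM at P43 and 57.2 and 89.1 CPM at P70, a rise of at least 61.8-fold over the limit that 3 UMIs in the P43 mice together would set. Scgb3a1, a small secreted protein of epithelia, was at 7.46 and 22.8 CPM at P43 and 1219 and 59.4 CPM at P70 (log2 fold change 5.67, SE 0.78, adjusted p = 0.000628), so mouse 6 set its level. Bgn, a matrix proteoglycan, was even in the 2 P70 mice, at 14.1 and 4.66 CPM at P43 and 262 and 223 CPM at P70 (log2 fold change 4.93, SE 0.44, adjusted p = 2.84e-05). Gja1, a gap junction protein from the astrocyte list that endothelial cells also make, was at 76.2 and 70.9 CPM at P43 and 256 and 282 CPM at P70 (log2 fold change 1.94, SE 0.28, adjusted p = 0.000778), while the other genes of that list summed to little, with Aldoc at 0 in both P70 mice. Among the largest falls, besides the genes named above and the hemoglobin genes of a few cells, were Plekhh2, Emp2, Palm, Tinagl1, Pllp and Syne1. Tinagl1, a basement membrane protein, was at 299 and 324 CPM at P43 and 40.2 and 89.1 CPM at P70 (log2 fold change -2.60, SE 0.35, adjusted p = 0.000526). Syne1, which ties the nucleus to the cytoskeleton, was at 482 and 565 CPM at P43 and 67.1 and 163 CPM at P70 (log2 fold change -2.51, SE 0.35, adjusted p = 0.000713).

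The 6 genes of the rule are given as values only. Cldn5, the main claudin of the barrier, was at 5282 and 6317 CPM at P43 and 4775 and 3769.9 CPM at P70. Flt1, the decoy VEGF receptor, was at 4007 and 4775 CPM at P43 and 2571 and 2746 CPM at P70. Pecam1 was at 604 and 805 CPM at P43 and 775 and 1173 CPM at P70 and Cdh5, the cadherin of endothelial junctions, at 372 and 556 CPM at P43 and 626 and 787 CPM at P70. Ly6c1 was at 2994 and 3608 CPM at P43 and 1495 and 1811 CPM at P70 and Itm2a at 3233 and 3868 CPM at P43 and 2341 and 1826 CPM at P70. Cldn5, Flt1, Ly6c1 and Itm2a were lower in both P70 mice, Cdh5 was higher in both, and Pecam1 overlapped between the ages. Bsg, which is not in the rule, was lower at P70 (log2 fold change -1.26, SE 0.32, adjusted p = 0.0461).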

How the data were processed

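Single-cell suspensions of 4 tumors were run as 10x Genomics 3' libraries. The values are raw UMI counts per gene and cell barcode, as deposited; the authors made them with Cell Ranger 6.0.2 and the mouse reference mm10 extended by luciferase and human MYCN, without normalization. Kept were 10975 of 11834 barcodes, those with at least 200 genes, at most 40000 UMIs and a mitochondrial share under 25%; the limit of 40000 UMIs was the only step against doublets. Library totals were 15044263, 13106786, 18698291 and 40621958 UMIs in mouse 4 to mouse 7. UMIs were summed per mouse over endothelial cells and, apart, over mural cells (at least 3 of the 5 mural genes, at most 1 of the 6 endothelial genes).

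Ages were compared with edgeR 4.0.16 in R 4.3.3 (TMM factors, filterByExpr, quasi-likelihood test) on 2 mice per age. All p-values named adjusted are Benjamini-Hochberg values over all genes tested, called under 0.05. They rest on the spread between these mice, with the spread of each gene drawn toward a trend over all genes. How the UMIs of a gene were divided among the cells of a mouse does not enter them. The change was compared with mural cells in 1 fit with mouse as a block. Each SE is the absolute log2 fold change or difference divided by the square root of the F statistic of its edgeR test. The genes of the rule stayed out of list counts. Shares were computed with Python 3.11.15 and scipy 1.17.1 and a thinning to 2000 UMIs per cell (seed 1). Alternatives were DESeq2 1.42.0, upper quartile factors, no filter on low counts, other cell limits and each mouse left out. The scripts were tested on simulated data.

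Named genes were up to 4 called genes per list by size of change (else up to 3 abundant ones as values), the 15 largest rises and 15 largest falls with a mean of at least 50 CPM and no overlap of the ages, the 5 largest differences from mural cells in each direction, and the 15 most abundant genes at least 10-fold above other cells. The members and the 38 gene lists were chosen with earlier results of these data known. Gene positions are GRCm38 (GENCODE vM21). A few genes of the lists are not reported here. The P77 and P92 libraries of the study were not analysed here.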

Additional observations from a re-analysis of the deposited data

Results flagged for a closer look

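For 10 genes the change from P43 to P70 differed between endothelial and mural cells by the interaction test (edgeR's quasi-likelihood test, adjusted p under 0.05), and these differences were the 5 largest in each direction by the rule for named genes. The endothelial change was higher for Kcnj2 (difference 7.59 on the log2 scale), Fam13a (6.85), Sh3bp5 (6.65), Mal (5.39) and Gng2 (5.08). Gng2, a G protein subunit, was at 9.11 and 3.62 CPM at P43 and 41.1 and 223 CPM at P70 in endothelial cells, and at 330.3 and 355 CPM and then 102 and 85.9 CPM in mural cells. Sh3bp5 was at 48.1 and 30.5 CPM and then 152 and 89.1 CPM in endothelial cells, and fell in mural cells from 134 and 92.5 CPM to 2.86 and 14.3 CPM. Mal did not rise in endothelial cells but fell in mural cells, from 257 and 63.0 CPM at P43 to 1.43 and 0 CPM at P70, and Mal is on the oligodendroglial list, whose RNA was high in both vessel classes of mouse 4. Kcnj2 and Fam13a had no UMI in mural cells of P70, so their fitted differences depend on the prior count.

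The endothelial change was lower for Emp1 (-5.93), Rasd1 (-5.64), Ifi27l2a (-5.56), Gimap1 (-5.53) and Abcb1a (-5.27). Emp1 and Gimap1 had no UMI in mural cells of P43, and their fitted differences have no fixed size. Rasd1, a dexamethasone-induced Ras protein, was at 115 and 141 CPM at P43 and 52.8 and 104 CPM at P70 in endothelial cells, and rose in mural cells from 6.33 and 7.11 CPM to 145 and 215 CPM. Ifi27l2a, an interferon-induced gene, was higher at P70 in both classes, and in mural cells it went from 1.27 and 2.03 CPM to 474 and 42.9 CPM. Abcb1a was at 1049 and 1288 CPM at P43 and 562 and 594 CPM at P70 in endothelial cells, while its mural values stayed low, at 1.27 and 1.02 CPM at P43 and 24.3 and 14.3 CPM at P70, so the large ratio rests on few mural UMIs.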

How the results depend on the processing

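Most results kept their direction, and the number of calls depended on the setting, on mouse 6 (P70 replicate 1) above all. In place of 316 genes changed with age of 9022 tested, DESeq2 called 158, no filter on low counts 536 of 14119 and equal cell numbers 117 of 2194. With equal cell numbers 145 of the 316 genes could be tested, and 75 of them were called. The narrower sum, limited by luciferase and MYCN UMIs and by oligodendroglial, neuron, lymphoid and neutrophil genes, gave 575. Cells with at least 5 of the 6 rule genes (chosen after seeing the data) gave 730, and leaving out 1 mouse gave 12 to 426. In place of 549 genes whose change differed from mural cells, DESeq2 called 103 and leaving out 1 mouse gave 58 to 487. Of 88 called genes named, most were no longer called without mouse 6, and a further part could not be tested there. H2-Ab1 and Cd74 reversed, with log2 fold changes of -7.82 and -1.97 without mouse 6 and up to 3.76 and 3.51 without mouse 4. DESeq2 no longer called 26 of the 88. The difference in share of endothelial cells was -28.5 to -11.5 percentage points with 1 mouse left out. Of the differences in shares of cells with list genes (P70 minus P43, percentage points), the venous one of 52.8 was 29.9 at 1000 UMIs, 17.1 without thinning, 32.2 with 1 gene and 38.1 with 3 genes; the arterial one of -22.1 was -15.9 with 3 genes and the capillary one of -2.23 was -12.6, but 1.32 without thinning and 0.847 with 1 gene. The tip cell difference of 16.3 was -3.09 without thinning and 4.47 with 1 gene, the leukocyte adhesion difference of 34.3 was 19.96 without thinning, 2.60 with 1 gene and 46.8 with 3 genes, and the cycling difference of 1.36 was 18.5 with 1 gene and -0.986 at 1000 UMIs. Apart from the depth and gene number each setting fixes by construction, the cause was not tested. No paired analysis was possible because the replicate numbers only name different mice at each age. Depth limits mouse 7 most, where 1 UMI is 14.8 CPM and 9 cells reach 2000 UMIs.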

Other observations

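Other lists also differed in their calls between the vessel classes of the same tumors. Of 11 glucocorticoid-responsive genes tested in mural cells 6 were higher at P70 and 1 was lower, where 6.41% and 4.39% of all genes tested there were, and the endothelial change was lower for Cdkn1a, Mt1, Mt2 and Nfkbia and higher for Sult1a1 among 14 genes in the test of the difference, where 2.64% and 2.77% of all genes had a lower and a higher endothelial change. Of these 5, DESeq2, and edgeR without mouse 6, called Nfkbia alone. In mural cells 12 of 20 cell cycle genes were higher at P70, against 2 of 17 in endothelial cells. In the edgeR fit of all mice, however, the 2 changes differed for none of 20 at an adjusted p under 0.05. Of the TGF-beta and BMP genes, the endothelial change was lower for Acvrl1, Id3, Ltbp4, Smad7 and Tgfb2 and higher for Smad1; of these 6, DESeq2 called Id3 and Ltbp4, and edgeR without mouse 6 called Id3. Ltbp4 was at 421 and 574 CPM at P43 and 144 and 163 CPM at P70 in endothelial cells, and at 40.5 and 42.7 CPM and then 152 and 71.6 CPM in mural cells, so it moved in opposite directions (difference -3.53, SE 0.35, adjusted p = 8.91e-19). Of the barrier transporters, Slc16a1, Slc22a8 and Slco1a4 had a higher and Abcb1a, Abcg2 and Slc6a6 a lower endothelial change, of which DESeq2 called Abcb1a alone and edgeR without mouse 6 none. These genes were named after the values were seen.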
